A study of Mus musculus with 12 samples.

Results

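RNA of 9 transcription factor genes that respond to the T cell receptor was followed across 4 sorted populations of splenic CD4 T cells. The genes were Egr1, Egr2, Egr3, Nr4a1, Nr4a2, Nr4a3, Irf4, Myc and Nfatc1. They were represented by every probe set to which the platform annotation gives one of these symbols alone, 23 probe sets among 45037 tested, and 9 genes among 18193 with such a probe set. Nr4a2 had 6 probe sets, Nfatc1 had 5, Nr4a3 had 3, Egr2, Egr3 and Irf4 had 2 each, and Egr1, Nr4a1 and Myc had 1 each. No filter on low values was applied, so all 23 were tested. Where a gene had several, 1 was taken as its lead by a rule on probe set type and accession that used no measured value.

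The cells came from spleens of female MRL/Faslpr mice, a lupus-prone strain in which every group carries a mutant Fas gene, which encodes a death receptor. All cells were sorted as TCRb+ CD4+ B220-. The 3 antigen-experienced CD44+ populations, from mice aged 16 to 24 weeks, were CD62Llo PSGL1lo, CD62Llo PSGL1hi and CD62Lhi PSGL1hi. CD62L is a lymph node homing receptor and PSGL1, encoded by Selplg, is a selectin ligand. Naive cells were CD62Lhi CD44lo and came from mice aged 6 to 8 weeks, so that cell state and age cannot be told apart in any difference from naive cells. Each population had 3 arrays. The sample titles name these technical replicates while the series' design text speaks of independent sorts, so the spread behind every p-value may be technical. One label field of the CD62Llo PSGL1hi samples gives a different gate, and the sample titles were used.

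In T cells, an engaged receptor signals through kinases to a calcium branch and a Ras branch. Calcium activates the phosphatase calcineurin, which sends NFAT proteins such as the product of Nfatc1 into the nucleus, while the Ras and ERK branch induces the Egr zinc finger genes. The Nr4a genes encode orphan nuclear receptors that are induced within hours of receptor engagement, Irf4 encodes a factor whose amount follows receptor signal strength, and Myc drives growth of activated cells. Egr2, Egr3 and the Nr4a factors are also known from anergic and chronically stimulated T cells.

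Each value is a linear ratio of a probe set's signal to that probe set's median over the 12 arrays. A ratio compares arrays for 1 probe set and says nothing of the level of one gene against another. Differences are on the log2 scale ± the standard error (SE) of the fit with 3 arrays per population, and a probe set was called at a limma adjusted p under 0.05 (Benjamini-Hochberg over 45037 probe sets). The sort was visible in the gate genes. Selplg had ratios of 0.118, 0.127 and 0.153 in CD62Llo PSGL1lo cells, against 0.906 to 1.095 in CD62Llo PSGL1hi cells. Cd44 lay between 0.772 and 1.397 in the CD44+ arrays, against 0.0752 to 0.0842 in naive arrays. Cd4 and Cd3e are the defining T helper and T cell genes. Cd4 had ratios of 1.132 to 1.193 in the CD62Llo arrays, against 0.703 to 0.868 in CD62Lhi PSGL1hi and naive arrays. Cd3e lay between 0.852 and 1.083 on every array. The CD62L gene was not analysed here. In bulk samples such as these, fewer cells of a type and less RNA per cell cannot be told apart.

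Among the 4 populations, 16 of the 23 probe sets differed in an F test, against 23.7% of all probe sets. They belonged to 7 genes, all of the 9 except Nr4a1 and Nr4a3. The 7 showed several patterns. Nfatc1, Egr1 and Egr2 on all their probe sets, and Irf4 on 1 of 2, were higher in every CD44+ population than in naive cells, and Myc was lower. On 4 of its 6 probe sets Nr4a2 was graded within the CD44+ cells, lowest in CD62Llo PSGL1lo and highest in CD62Lhi PSGL1hi cells. Egr3 differed on only 1 of its 2 probe sets.

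Against naive cells, 14 probe sets were higher and 1 was lower in CD62Llo PSGL1lo cells, where 9.53% of all probe sets were higher and 10.6% lower. In CD62Llo PSGL1hi cells 13 were higher and 1 lower, against 9.1% and 8.16% of all probe sets. In CD62Lhi PSGL1hi cells 13 were higher and 1 lower, against 8.6% and 8.66%. The median log2 difference over the 23 probe sets was 0.69, 0.73 and 0.66 in these 3 populations, beside -0.052, -0.054 and -0.046 over all probe sets. Nr4a2 and Nfatc1 hold 6 and 5 of the 23, so these figures weigh some genes several times. By 1 lead probe set per gene, the median of the 9 genes was only 0.082, 0.117 and 0.115. In each population 4 of these leads were higher and 1 lower, where 10.4%, 9.91% and 9.78% of all genes were higher and 11.5%, 9.15% and 9.43% lower. The 3 comparisons share the naive arrays. By probe set, 60.9%, 56.5% and 56.5% of the 23 were higher, more than the share of all probe sets in each comparison. Probe sets of 1 gene are not separate cases, and by lead probe set 4 of the 9 genes were higher. Myc alone made up the lower call.

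**Figure D1:**
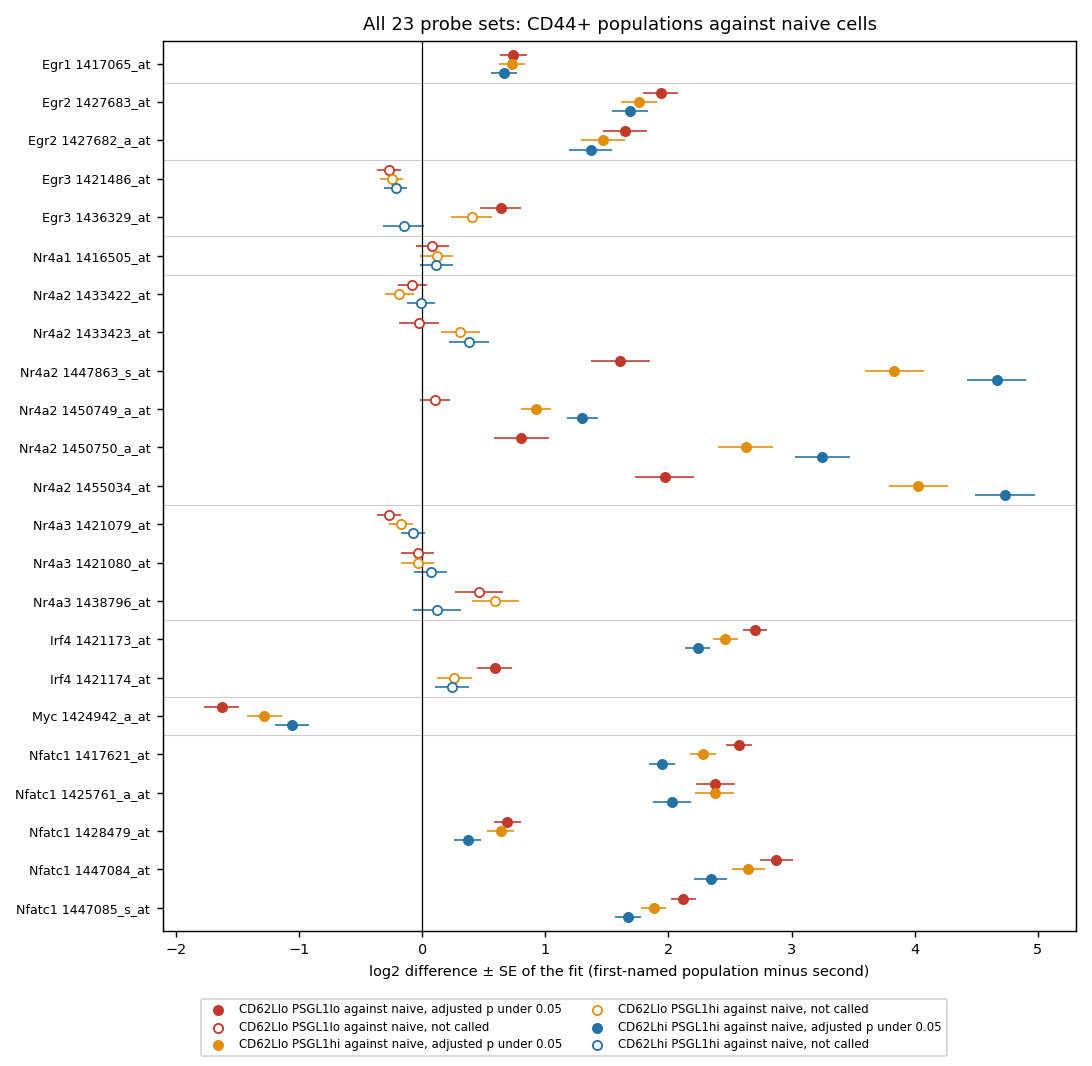
Log2 difference ± SE of each of the 23 probe sets in CD62Llo PSGL1lo (red), CD62Llo PSGL1hi (orange) and CD62Lhi PSGL1hi (blue) cells against naive cells. Filled points passed an adjusted p of 0.05. Irf4 1421173_at, Nfatc1 and Egr2 lie to the right in all 3 populations, Myc lies to the left, and 4 Nr4a2 probe sets spread over the widest range.

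Nfatc1 encodes an NFAT factor that is itself induced by calcineurin signalling. Its lead probe set 1417621_at had ratios of 1.394, 1.273 and 1.335 in CD62Llo PSGL1lo cells, 1.121, 1.125 and 1.035 in CD62Llo PSGL1hi cells, 0.965, 0.878 and 0.762 in CD62Lhi PSGL1hi cells, and 0.241, 0.231 and 0.203 in naive cells. No 2 populations overlapped. Nfatc1 was 5.94-fold higher than naive in CD62Llo PSGL1lo cells (log2 2.57 ± 0.106, adjusted p = 6.31e-10), 4.87-fold higher in CD62Llo PSGL1hi cells (adjusted p = 2.19e-09) and 3.85-fold higher in CD62Lhi PSGL1hi cells (adjusted p = 1.31e-08). Between the ends of the CD44+ order, CD62Llo PSGL1lo cells were 1.54-fold above CD62Lhi PSGL1hi cells (0.625 ± 0.106, adjusted p = 0.00105), higher in each of the 3 replicate numbers. The neighbouring populations did not pass the test. The difference of CD62Llo PSGL1lo from CD62Llo PSGL1hi cells was 0.29 (adjusted p = 0.143), and that of CD62Llo PSGL1hi from CD62Lhi PSGL1hi cells was 0.34 (adjusted p = 0.22).

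All 5 Nfatc1 probe sets were called against naive cells in every CD44+ population, and the other 4 followed the lead over the 12 arrays with Pearson r of 0.921 to 0.998, a description of arrays that share their populations. They differed in size. Probe set 1447084_at was 7.34-fold higher in CD62Llo PSGL1lo cells than in naive cells, whereas 1428479_at was 1.61-fold higher. The smallest of the 15 differences, that of 1428479_at in CD62Lhi PSGL1hi cells (0.37 ± 0.11, adjusted p = 0.032), lost its call in 6 of 18 alternative settings. For CD62Llo PSGL1lo against CD62Lhi PSGL1hi cells, 3 of the 5 were called, the lead, 1447084_at (0.53, adjusted p = 0.0168) and 1447085_s_at (0.45, adjusted p = 0.0101). The calls of 1447084_at and 1447085_s_at were lost when only the 2 populations compared were fitted (adjusted p = 0.0672 and 0.0579). That of 1447084_at was also lost without CD62Llo PSGL1lo replicate 3 (adjusted p = 0.0672) or CD62Lhi PSGL1hi replicate 3 (0.0698).

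Irf4 encodes an interferon regulatory factor that effector T cells need to expand. On its lead probe set 1421173_at the ratios were 1.466, 1.156 and 1.244 in CD62Llo PSGL1lo cells, 1.043, 1.14 and 1.075 in CD62Llo PSGL1hi cells, 0.957, 0.893 and 0.938 in CD62Lhi PSGL1hi cells, and 0.187, 0.204 and 0.2 in naive cells. As for Nfatc1, the 4 populations did not overlap. Irf4 was 6.51-fold higher than naive in CD62Llo PSGL1lo cells (2.70 ± 0.10, adjusted p = 2.43e-10), 5.51-fold in CD62Llo PSGL1hi cells (adjusted p = 6.75e-10) and 4.72-fold in CD62Lhi PSGL1hi cells (adjusted p = 1.98e-09). It was 1.38-fold higher in CD62Llo PSGL1lo cells relative to CD62Lhi PSGL1hi cells (0.465 ± 0.10, adjusted p = 0.00624; 0.0562 when only these populations were fitted). Neighbours in the order did not pass, at 0.24 (adjusted p = 0.209) for CD62Llo PSGL1lo against CD62Llo PSGL1hi cells and 0.22 (adjusted p = 0.505) for CD62Llo PSGL1hi against CD62Lhi PSGL1hi cells. The second probe set, 1421174_at, showed far less. It was called only in CD62Llo PSGL1lo against naive cells (0.59 ± 0.141, adjusted p = 0.00786), and its Pearson r with the lead was 0.668 over 12 arrays.

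The Egr genes encode zinc finger factors of the immediate early response. Egr2 1427683_at had ratios of 1.331, 1.02 and 1.195 in CD62Llo PSGL1lo cells, 1.095, 1.14 and 0.9 in CD62Llo PSGL1hi cells, 1.183, 0.98 and 0.831 in CD62Lhi PSGL1hi cells, and 0.319, 0.279 and 0.325 in naive cells. The CD44+ populations overlapped one another and lay wholly above the naive arrays. Egr2 was 3.83-fold, 3.39-fold and 3.22-fold higher than naive in CD62Llo PSGL1lo, CD62Llo PSGL1hi and CD62Lhi PSGL1hi cells (adjusted p = 1.84e-07, 7.16e-07 and 1.23e-06). The second Egr2 probe set, 1427682_a_at, was 3.13-fold, 2.77-fold and 2.58-fold higher in the same order, with r of 0.981 to the first. No Egr2 difference within the CD44+ cells passed. The widest, CD62Llo PSGL1lo against CD62Lhi PSGL1hi cells on 1427682_a_at, was 0.28 (95% interval -0.102 to 0.659, adjusted p = 0.438).

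Egr1 followed the same pattern with a smaller step. Its ratios were 1.145, 0.957 and 1.121 in CD62Llo PSGL1lo cells, 1.031, 1.176 and 0.992 in CD62Llo PSGL1hi cells, 1.111, 1.008 and 0.935 in CD62Lhi PSGL1hi cells, and 0.635, 0.679 and 0.613 in naive cells. The gain over naive was 1.67-fold in CD62Llo PSGL1lo cells (0.74 ± 0.108, adjusted p = 0.000149), 1.66-fold in CD62Llo PSGL1hi cells (adjusted p = 0.000216) and 1.58-fold in CD62Lhi PSGL1hi cells (adjusted p = 0.000515). The CD44+ populations overlapped, and no Egr1 difference among them passed.

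Egr3, the partner of Egr2 in limiting T cell activation, gave no single answer. Probe set 1436329_at had ratios of 1.643, 1.202 and 1.336 in CD62Llo PSGL1lo cells, 1.236, 1.327 and 0.992 in CD62Llo PSGL1hi cells, 0.897, 0.914 and 0.626 in CD62Lhi PSGL1hi cells, and 1.008, 0.845 and 0.826 in naive cells. The CD62Llo PSGL1lo arrays lay above all CD62Lhi PSGL1hi and all naive arrays. They were 1.73-fold higher than CD62Lhi PSGL1hi cells (0.79 ± 0.166, adjusted p = 0.0054) and 1.55-fold higher than naive cells (0.64, adjusted p = 0.0134). The naive call was lost after quantile normalization (adjusted p = 0.0576), without CD62Llo PSGL1lo replicate 1 (0.0571), without naive replicate 2 (0.0561) and without naive replicate 3 (0.059). CD62Llo PSGL1hi cells were 0.56 above CD62Lhi PSGL1hi cells on this probe set (adjusted p = 0.183; 0.0363 with a replicate block over 12 arrays). The lead probe set 1421486_at was not called in any comparison. It had ratios of 0.904 to 0.984 in CD62Llo PSGL1lo cells against 1.116 to 1.194 in naive cells, a difference of -0.27 ± 0.095 (adjusted p = 0.0619). The 2 Egr3 probe sets had a Pearson r of -0.527 over the 12 arrays.

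**Figure D2:**
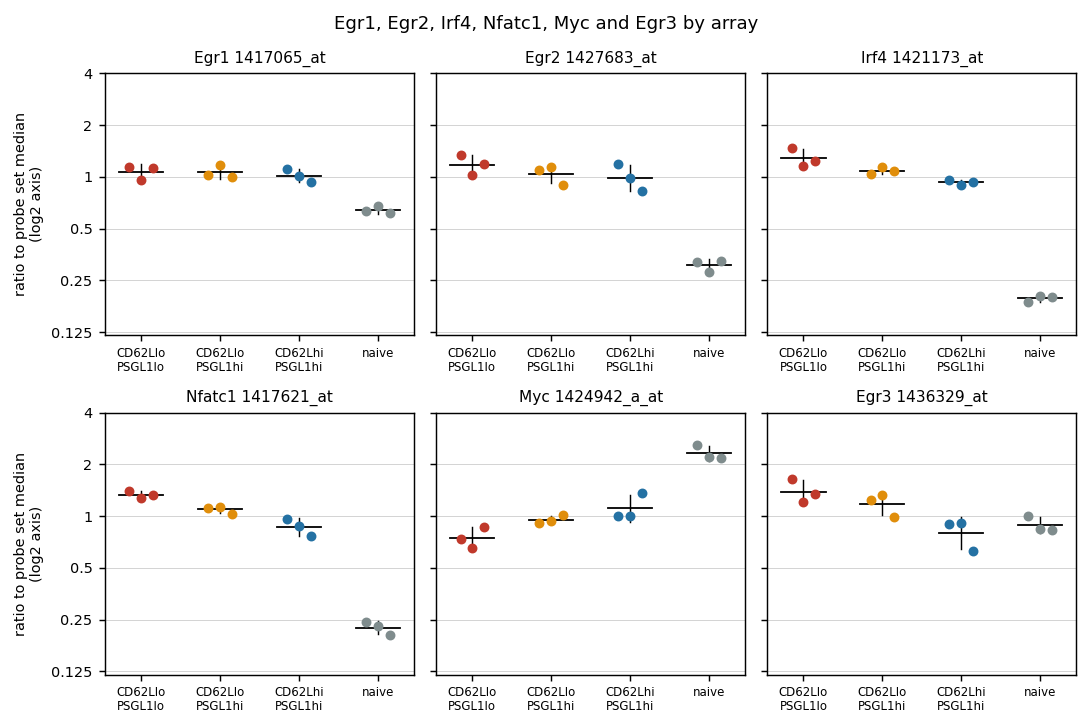
Ratio to the probe set median (log2 axis) on each array for Egr1, Egr2, Irf4, Nfatc1, Myc and Egr3 1436329_at in CD62Llo PSGL1lo, CD62Llo PSGL1hi, CD62Lhi PSGL1hi and naive cells. Points are arrays, horizontal lines the mean of the log2 ratios and vertical bars ± 1 SD on the log2 scale (n = 3). Irf4 and Nfatc1 are highest in CD62Llo PSGL1lo cells and lowest in naive cells, while Myc runs the other way.

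Myc encodes the transcription factor that raises metabolism and ribosome production in activated cells. Among the 9 genes it alone was called lower in CD44+ populations than in naive cells. Its single probe set 1424942_a_at had ratios of 0.738, 0.651 and 0.868 in CD62Llo PSGL1lo cells, 0.906, 0.939 and 1.012 in CD62Llo PSGL1hi cells, 1.003, 0.997 and 1.364 in CD62Lhi PSGL1hi cells, and 2.585, 2.192 and 2.189 in naive cells. Every naive array lay above every CD44+ array. Myc was 3.1-fold lower than naive in CD62Llo PSGL1lo cells (-1.63 ± 0.139, adjusted p = 7.58e-07), 2.43-fold lower in CD62Llo PSGL1hi cells (adjusted p = 1.18e-05) and 2.09-fold lower in CD62Lhi PSGL1hi cells (adjusted p = 7.65e-05). Within the CD44+ cells it was 1.48-fold lower in CD62Llo PSGL1lo cells relative to CD62Lhi PSGL1hi cells (-0.57, adjusted p = 0.014). That call was lost when only these populations were fitted (adjusted p = 0.0815), without CD62Llo PSGL1lo replicate 2 (0.053) and without CD62Lhi PSGL1hi replicate 3 (0.058). Both steps between neighbours, -0.35 (adjusted p = 0.181) and -0.22 (adjusted p = 0.704), missed the threshold.

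Markers of dividing cells differed between the ends of the CD44+ order. The mean ratio of 7 such genes was 0.582 to 0.868 over the CD62Llo PSGL1lo arrays and 0.779 to 1.05 over the CD62Llo PSGL1hi arrays. It was 1.84 to 3.48 over the CD62Lhi PSGL1hi arrays and 0.996 to 1.07 in naive cells. Of the 7, 6 were lower and none higher in CD62Llo PSGL1lo cells relative to CD62Lhi PSGL1hi cells. Relative to CD62Llo PSGL1hi cells only 1 was lower and none higher. Of all genes 7.37% and 5.64% were lower in these comparisons. Of 11 markers of macrophages, monocytes and neutrophils, the mean ratio was 0.787 to 1.24 in CD44+ arrays and 3.18 to 3.41 in naive arrays. The neutrophil genes S100a8 and S100a9 had the widest differences downward, -3.99 and -3.83 in CD62Lhi PSGL1hi against naive cells, while the median of the 11 was -0.38 and the macrophage gene Cd68 was higher by 3.71. Of these 11 genes 5, 5 and 4 were lower, and 2, 1 and 1 higher, in CD62Llo PSGL1lo, CD62Llo PSGL1hi and CD62Lhi PSGL1hi cells. Of all genes 11.5%, 9.15% and 9.43% were lower than naive there, and 10.4%, 9.91% and 9.78% higher. The part of either list in the Myc differences was not tested.

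The Nr4a genes stood apart from one another. The 250 bases upstream of each, from RefSeq on GRCm38.p6, are shown because all 3 carry several half-sites of the cAMP response element, the site of CREB, although only Nr4a2 RNA differed here. Capitals mark TGACG on either strand (CGTCA where it lies on the other strand). The windows are chr15:101266596-101266845 on the plus strand for Nr4a1, chr2:57124004-57124253 on the minus strand for Nr4a2 and chr4:48045055-48045304 on the plus strand for Nr4a3, each written 5′ to 3′ towards the gene.
Nr4a1: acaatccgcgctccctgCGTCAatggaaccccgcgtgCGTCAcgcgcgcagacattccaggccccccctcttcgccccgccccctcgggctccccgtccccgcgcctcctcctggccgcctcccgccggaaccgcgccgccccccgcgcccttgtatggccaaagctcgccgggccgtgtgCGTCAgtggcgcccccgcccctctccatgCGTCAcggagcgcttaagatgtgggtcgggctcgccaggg
Nr4a2: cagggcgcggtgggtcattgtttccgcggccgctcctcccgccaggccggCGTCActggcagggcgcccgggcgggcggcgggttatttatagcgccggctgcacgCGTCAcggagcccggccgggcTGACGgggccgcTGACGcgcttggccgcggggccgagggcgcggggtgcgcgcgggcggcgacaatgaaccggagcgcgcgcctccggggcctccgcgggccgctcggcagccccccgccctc
Nr4a3: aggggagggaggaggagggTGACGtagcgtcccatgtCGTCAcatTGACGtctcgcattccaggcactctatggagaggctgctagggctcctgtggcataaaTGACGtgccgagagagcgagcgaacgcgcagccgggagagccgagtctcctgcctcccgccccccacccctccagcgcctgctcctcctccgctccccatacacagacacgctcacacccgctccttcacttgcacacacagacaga

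Each of the 3 windows held 4 half-sites. Of 32851 promoter windows of the same length, 17.8% held at least 1 and 0.137% held at least 4. The full element TGACGTCA was in none of the 3, against 1.55% of all windows. The NFAT core GGAAA, searched on both strands, occurred once, in the Nr4a2 window, and in 55.6% of all windows. A match is a description of letters and not evidence of binding. Windows were used for 5 of the 9 genes, after a filter by chromosome that was not applied to the background of all windows. A gene without a window here may therefore have one in the source. Of 5 windows for Egr2, 4 held a serum response (CArG) box, but 3 of these overlap over most of their length and are not separate cases. Of all windows 1.47% held one.

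Nr4a2 had the widest range of the 9 genes, and the populations were graded. On probe set 1455034_at the ratios were 0.555, 0.312 and 0.386 in CD62Llo PSGL1lo cells, 2.328, 1.447 and 1.445 in CD62Llo PSGL1hi cells, 3.909, 2.402 and 2.245 in CD62Lhi PSGL1hi cells, and 0.113, 0.102 and 0.0968 in naive cells. Replicate 1 was the highest array of each CD44+ population. The CD62Llo PSGL1lo arrays lay below all PSGL1hi arrays and above all naive arrays, while the PSGL1hi populations overlapped. Nr4a2 was 4.18-fold lower in CD62Llo PSGL1lo cells relative to CD62Llo PSGL1hi cells (-2.06 ± 0.242, adjusted p = 6.12e-05) and 6.81-fold lower relative to CD62Lhi PSGL1hi cells (-2.77, adjusted p = 2.62e-06). Against naive cells it was 3.91-fold higher in CD62Llo PSGL1lo cells (adjusted p = 3.11e-05), 16.3-fold higher in CD62Llo PSGL1hi cells (adjusted p = 2.93e-08) and 26.6-fold higher in CD62Lhi PSGL1hi cells (adjusted p = 7.05e-09).

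The Nr4a2 difference between the PSGL1hi populations passed the test only with pairing. Without a block, CD62Llo PSGL1hi cells were -0.71 ± 0.242 relative to CD62Lhi PSGL1hi cells on 1455034_at (adjusted p = 0.291). Within replicate numbers 1, 2 and 3 the difference was -0.75, -0.73 and -0.64, and with the replicate number as a block over the 9 CD44+ arrays the adjusted p was 0.00297. With the same block 1447863_s_at (-0.83, adjusted p = 0.00163; 0.158 without) and 1450750_a_at (-0.62, adjusted p = 0.00568; 0.33 without) were also called. No other probe set of the 9 genes was called in this comparison with that block.

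This order was shown by 4 of the 6 Nr4a2 probe sets. Beside 1455034_at, these were 1447863_s_at, 1450750_a_at and 1450749_a_at, with r of 0.996, 0.981 and 0.933 to it over 12 arrays. In CD62Llo PSGL1lo cells they were lower relative to CD62Llo PSGL1hi cells, with log2 differences of -2.23 (adjusted p = 2.57e-05), -1.82 (adjusted p = 9.24e-05) and -0.82 (adjusted p = 0.000512). The remaining 2, 1433423_at and the lead 1433422_at, were not called in any comparison, and their r to 1455034_at was 0.689 and -0.255. Probe set 1433422_at had ratios between 0.876 and 1.228 on all 12 arrays. The suffix of 1447863_s_at marks probes that can match transcripts of more than 1 gene.

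The gap between CD62Llo PSGL1lo and naive cells was the least stable Nr4a2 result. It was called on 3 of the 6 probe sets, and after quantile normalization it fell to 0.39 (adjusted p = 0.629) on 1455034_at and to 0.18 (adjusted p = 0.855) on 1447863_s_at. Quantile normalization gives every array the same distribution of ratios, which can itself shrink differences from naive cells. On these 2 probe sets the gap kept its call in 17 of 18 alternative settings. On 1450750_a_at it was 0.80 (adjusted p = 0.0199) as deposited and -0.055 (adjusted p = 0.957) after quantile normalization. That probe set also lost the call without CD62Llo PSGL1lo replicate 1 (adjusted p = 0.0814), CD62Llo PSGL1lo replicate 3 (0.0507) or naive replicate 3 (0.108). The higher values in the PSGL1hi populations against naive cells kept their call in every setting on 4 probe sets. On 1455034_at the lowest log2 difference over the settings was 2.69 for CD62Llo PSGL1hi and 3.45 for CD62Lhi PSGL1hi cells.

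**Figure D3:**
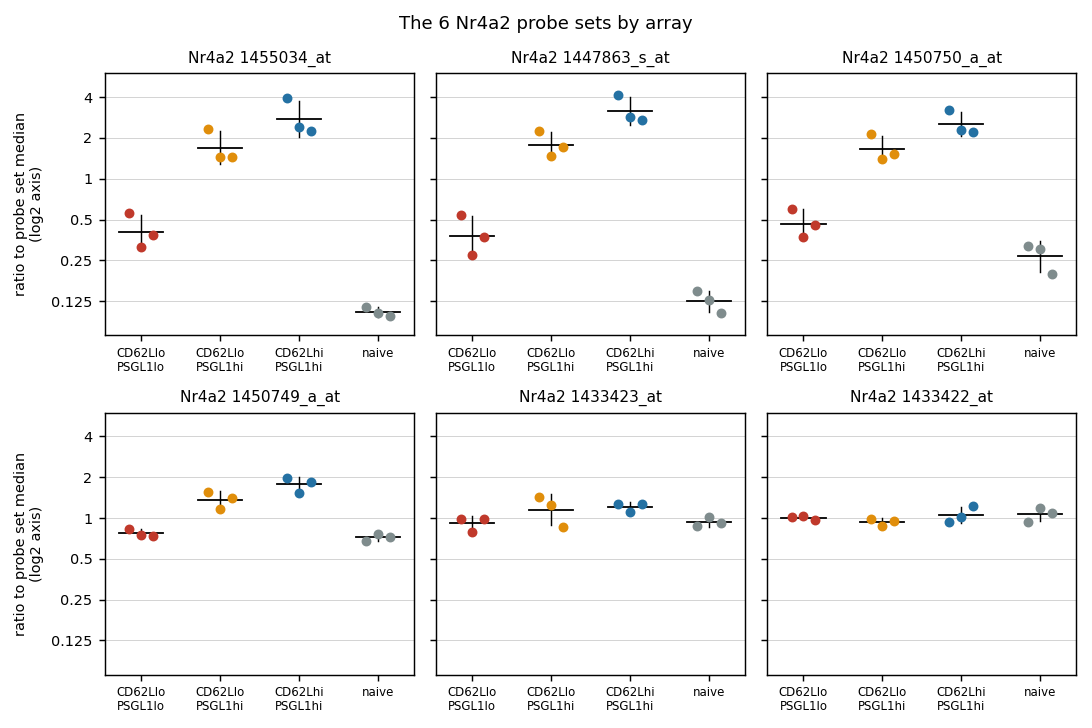
Ratio to the probe set median (log2 axis) on each array for the 6 Nr4a2 probe sets in CD62Llo PSGL1lo, CD62Llo PSGL1hi, CD62Lhi PSGL1hi and naive cells, with points, lines and bars as for the other array plot. On 4 probe sets the mean is highest in CD62Lhi PSGL1hi cells, whose arrays can overlap those of CD62Llo PSGL1hi cells, and lowest of the CD44+ cells in CD62Llo PSGL1lo cells; 1433423_at and 1433422_at are flat by comparison.

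Several regulatory T cell markers differed in the direction of Nr4a2 between CD62Llo PSGL1lo and PSGL1hi cells. The mean ratio of 7 marker genes was 0.662 to 0.701 in CD62Llo PSGL1lo arrays, 1.48 to 1.78 in CD62Llo PSGL1hi arrays, 1.5 to 1.75 in CD62Lhi PSGL1hi arrays and 0.279 to 0.326 in naive arrays. In CD62Llo PSGL1lo against naive cells 5 of the 7 were higher and 1 lower, where 10.4% of all genes were higher and 11.5% lower. Foxp3 went against Nr4a2 there, with ratios of 0.182, 0.108 and 0.131, below the 0.359 to 0.375 of naive arrays. Of all genes 5.64% were lower in CD62Llo PSGL1lo relative to CD62Llo PSGL1hi cells. Of the 7, 4 were lower and none higher in CD62Llo PSGL1lo cells relative to CD62Llo PSGL1hi cells: Foxp3, the lineage factor (-3.74, adjusted p = 9.2e-09), the integrin gene Itgae (-4.12), the cytokine gene Il10 (-3.36) and the interleukin 2 receptor gene Il2ra (-1.17). The other 3 were not called there: the checkpoint receptor gene Ctla4 had ratios of 1.465, 1.17 and 1.202 in CD62Llo PSGL1lo cells, against 0.948, 1.137 and 0.835 in CD62Llo PSGL1hi cells (0.40, adjusted p = 0.0992), and the Ikaros family gene Ikzf2 differed by 0.31 (adjusted p = 0.254). In CD62Llo PSGL1lo against CD62Lhi PSGL1hi cells, where Nr4a2 was also lower, the same 4 markers were lower and the receptor gene Nrp1 was higher (0.40, adjusted p = 0.0261). Between the PSGL1hi populations, for which Nr4a2 differed with the block, 1 of the 7 regulatory markers was higher and none lower in CD62Llo PSGL1hi cells relative to CD62Lhi PSGL1hi cells. Markers of dividing cells did differ there: 6 of 7 were lower and none higher in CD62Llo PSGL1hi cells, with a median of -1.76 and a mean ratio of 0.779 to 1.05, against 1.84 to 3.48 in CD62Lhi PSGL1hi cells. Of all genes 1.1% were lower and 0.495% higher in that comparison. Of 7 NK and CD8 T cell markers, Klrd1 (-4.59), Klrg1 (-3.69) and Gzma (-2.21) were lower in CD62Llo PSGL1lo cells relative to CD62Llo PSGL1hi cells. Klrg1 and Gzma can also be expressed by CD4 T cells, and the source of these 3 differences was not tested. The defining genes Cd8a (-0.10, adjusted p = 0.693), Cd8b1 (-0.03, adjusted p = 0.955) and Ncr1 (-0.01, adjusted p = 0.978) were not called. The part of regulatory and dividing cells in the Nr4a2 differences was not tested.

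Nr4a1, a reporter gene for recent receptor signalling, and Nr4a3 showed no call. Nr4a1 had ratios of 1.09, 0.871 and 1.092 in CD62Llo PSGL1lo cells, 1.115, 0.924 and 1.082 in CD62Llo PSGL1hi cells, 0.882, 1.019 and 1.236 in CD62Lhi PSGL1hi cells, and 0.962, 0.981 and 0.927 in naive cells. All 4 populations overlapped. The 95% interval of CD62Llo PSGL1lo minus naive cells was -0.203 to 0.366 log2, and that of CD62Llo PSGL1lo minus CD62Llo PSGL1hi cells was -0.319 to 0.249. Nr4a3 was near the threshold on 1438796_at, where CD62Llo PSGL1hi cells were 0.59 ± 0.194 above naive cells (adjusted p = 0.0505; 0.00613 to 0.213 over 18 alternative settings, under 0.05 in 9). Its other probe sets, 1421079_at and 1421080_at, differed from naive by -0.27 to 0.07 over the 3 CD44+ populations.

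Within the CD44+ cells, low against high PSGL1 at low CD62L left 4 probe sets lower and none higher, all of Nr4a2, where 4.97% of all probe sets were lower and 3.41% higher. CD62Llo PSGL1hi against CD62Lhi PSGL1hi cells gave no call among the 23 without a block, and 4 with a replicate block over 12 arrays or 3 with one over the 9 CD44+ arrays, which the replicate numbers pair. The blocks also raised the calls among all probe sets, from 556 without a block to 1016 over 12 arrays and 1089 over the 9. Of these calls 378, 561 and 560 were lower. Without a block 0.839% of all probe sets were lower and 0.395% higher. Of the 23, 11 had an unadjusted limma p under 0.05, 7 of them higher and 4 lower, against 9.35% of all probe sets. The 4 lower were all of Nr4a2, and most of the 7 higher were of Nfatc1, the rest of Egr3, Nr4a3 and Irf4. Probe sets of the same gene are not separate cases. Between the ends, CD62Llo PSGL1lo against CD62Lhi PSGL1hi, 5 probe sets were higher and 5 lower, against 5.37% and 6.27% of all probe sets. The 5 higher belonged to Nfatc1, Irf4 and Egr3 and the 5 lower to Nr4a2 and Myc. These 3 comparisons share arrays.

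**Figure D4:**
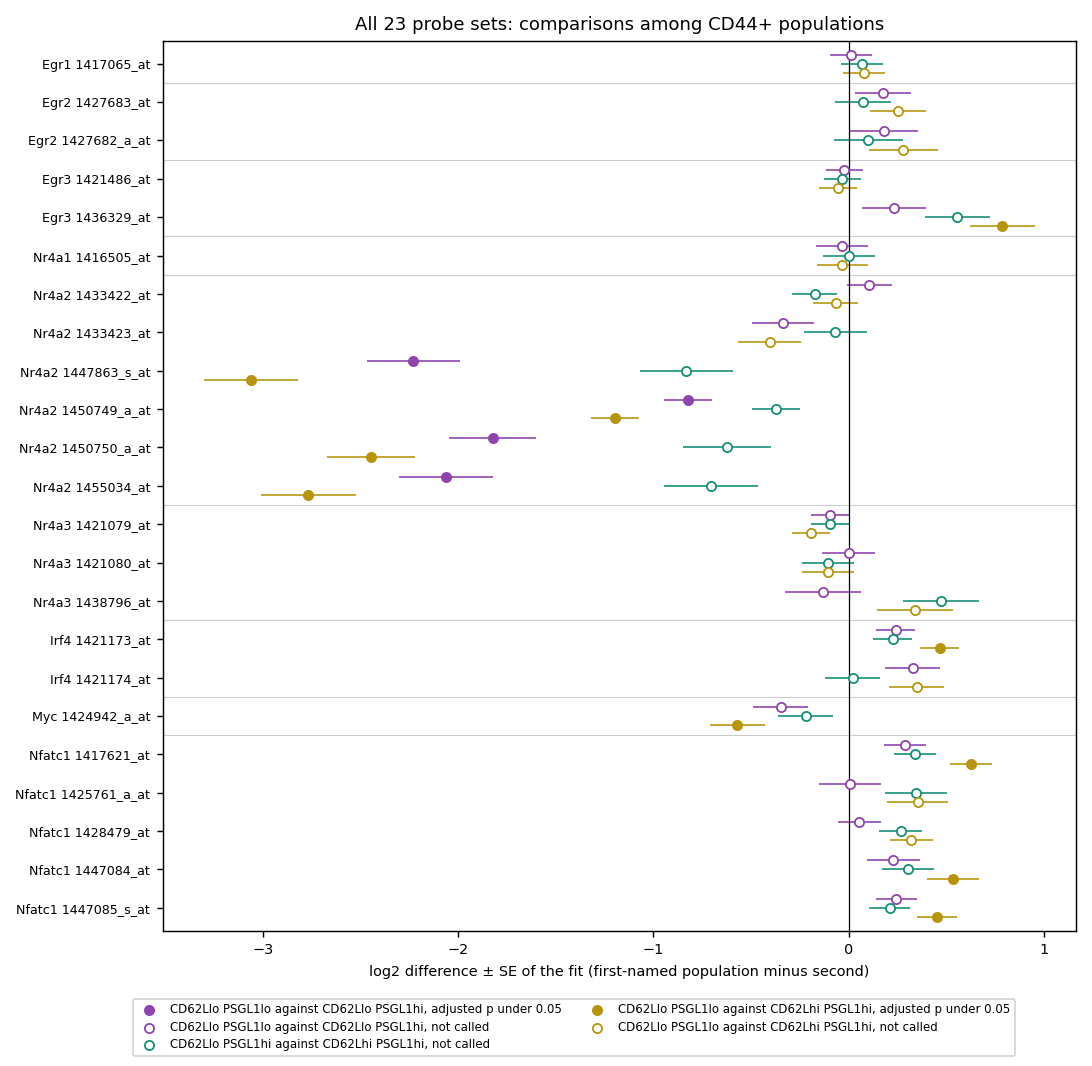
Log2 difference ± SE of each of the 23 probe sets for CD62Llo PSGL1lo against CD62Llo PSGL1hi, CD62Llo PSGL1hi against CD62Lhi PSGL1hi and CD62Llo PSGL1lo against CD62Lhi PSGL1hi cells. Filled points passed an adjusted p of 0.05. The 4 graded Nr4a2 probe sets lie far to the left in both comparisons of CD62Llo PSGL1lo cells, and the widest difference of another gene is 0.79, for Egr3 1436329_at.

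The differences from naive cells were smaller under another scaling. After quantile normalization of the ratios, CD62Llo PSGL1lo cells were higher than naive by 1.52 for Irf4 1421173_at, 1.47 for Nfatc1 1417621_at and 1.14 for Egr2 1427683_at. In CD62Llo PSGL1hi cells these were 1.34, 1.25 and 0.96, and in CD62Lhi PSGL1hi cells 1.09, 0.89 and 0.91, all still called. The 9 CD44+ arrays weigh most in each probe set's median, so naive ratios can lie furthest from 1. Quantile normalization gives every array the same distribution of ratios and can itself shrink such differences, so the smaller values do not show which scaling is right. A list of 16 stress and handling genes, immediate early and heat shock genes other than the 9, shared 9 genes with the early genes of the receptor response counted next, Fos and Jun among them, so the counts of these lists are not separate. Of the 16, 7, 8 and 7 were higher and none lower than naive in CD62Llo PSGL1lo, CD62Llo PSGL1hi and CD62Lhi PSGL1hi cells. Of all genes 10.4%, 9.91% and 9.78% were higher there. The mean ratio of the stress list was 0.879 to 1.21, 1.12 to 1.45 and 1.1 to 1.2 in these arrays, and 0.666 to 0.774 in naive arrays. Its part in the higher Egr, Irf4 and Nfatc1 values was not tested.

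Genes that act around the 9 in the pathway, each by 1 lead probe set, were counted against 18193 genes. In CD62Llo PSGL1lo, CD62Llo PSGL1hi and CD62Lhi PSGL1hi cells against naive cells, 10.4%, 9.91% and 9.78% of these genes were higher and 11.5%, 9.15% and 9.43% lower. Of 33 early genes of the receptor response, 14, 18 and 13 were higher in the 3 populations and 3, 0 and 2 lower. Of 15 genes linked to Egr2 in anergic or activated T cells, 8, 10 and 9 were higher and 1 was lower in each. Of 15 Irf4 partners and related factors, 8 were higher in each population and 2, 0 and 0 lower. In each of these 3 lists the share called higher was above that of all genes.

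The lists around Myc and the receptor itself were counted against the same shares of all genes. Of 29 Myc growth targets, 3, 2 and 2 were higher and 7, 7 and 8 lower in CD62Llo PSGL1lo, CD62Llo PSGL1hi and CD62Lhi PSGL1hi cells, with medians of -0.23, -0.24 and -0.24 beside -0.057, -0.066 and -0.045 over all genes. Of 11 Myc network genes, 1, 1 and 2 were higher and none lower. Of 16 partners of Egr, serum response factor and NFAT, 4, 4 and 1 were higher and 2, 1 and 1 lower. Of 22 genes of the receptor signal chain, 7, 9 and 5 were higher and 4, 2 and 3 lower, among them the phosphatase gene Ptpn22, higher by 1.99, 2.07 and 1.88.

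Within the CD44+ cells the same lists split. In CD62Llo PSGL1lo against CD62Llo PSGL1hi cells, where 3.97% of genes were higher and 5.64% lower, 4 early genes were higher and 8 lower, 2 Irf4 partners higher and 4 lower, and 3 Egr2-linked genes higher and 2 lower. In CD62Llo PSGL1lo against CD62Lhi PSGL1hi cells, where 5.86% were higher and 7.37% lower, 9 early genes were higher and 5 lower, 4 Irf4 partners higher and 4 lower, and 4 Egr2-linked genes higher and 2 lower. In CD62Llo PSGL1hi against CD62Lhi PSGL1hi cells, where 0.495% were higher and 1.1% lower, 4 early genes were higher and none lower. These were the signalling inhibitor genes Spry1 (0.92, adjusted p = 0.00112) and Cish (0.66, adjusted p = 0.0161) and the cytokine genes Tnfsf8 (1.42, adjusted p = 0.0023) and Tnf (0.56, adjusted p = 0.00474). In that comparison 1 Egr2-linked gene was higher and 1 lower, 1 Myc network gene was lower, and the other lists had no limma call. Of the receptor signal chain, 3 genes were higher and 1 lower in CD62Llo PSGL1lo against CD62Llo PSGL1hi cells, and 4 and 1 against CD62Lhi PSGL1hi cells. The partners of Egr, serum response factor and NFAT gave 1 higher and 2 lower in both comparisons. Of the Myc growth targets 2 were higher and 1 lower in the first and 1 and 1 in the second, and of the Myc network 1 gene was lower in the second alone.

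The genes of calcineurin, which acts upstream of Nfatc1, differed from one another. Ppp3ca, which encodes a catalytic subunit, had ratios of 0.126, 0.12 and 0.134 in CD62Llo PSGL1lo cells, 1.371, 1.128 and 1.061 in CD62Llo PSGL1hi cells, 1.346, 1.11 and 0.984 in CD62Lhi PSGL1hi cells, and 1.016, 0.863 and 0.899 in naive cells. The CD62Llo PSGL1lo arrays stood below all others, where the lead Nfatc1 probe set was highest. The Ppp3ca difference of CD62Llo PSGL1lo from CD62Llo PSGL1hi cells was -3.22 ± 0.129 (adjusted p = 2.19e-09), and its other 2 probe sets gave -2.07 and -3.20. Ppp3cc, another catalytic subunit gene, was higher relative to naive cells in CD62Llo PSGL1lo (0.34, adjusted p = 0.0411) and CD62Llo PSGL1hi cells (0.66, adjusted p = 0.000547), as Nfatc1 was, and differed by 0.25 (adjusted p = 0.148) in CD62Lhi PSGL1hi cells. Ppp3cb and the regulatory subunit gene Ppp3r1 were not called in any comparison. Rcan1, which encodes a calcineurin inhibitor, was 1.16 ± 0.149 higher in CD62Llo PSGL1lo relative to CD62Llo PSGL1hi cells (adjusted p = 0.000131). Its other probe set differed there by -0.08 (adjusted p = 0.797). The related gene Rcan3 was lower than naive in all CD44+ populations, with log2 differences of -1.57, -1.66 and -1.65 in CD62Llo PSGL1lo, CD62Llo PSGL1hi and CD62Lhi PSGL1hi cells.

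Partners of Irf4 did not all follow it within the CD44+ cells. Batf, whose product binds DNA with Irf4, was 5.26-fold, 3.78-fold and 3.31-fold higher than naive in CD62Llo PSGL1lo, CD62Llo PSGL1hi and CD62Lhi PSGL1hi cells. Prdm1, a repressor gene that Irf4 activates, was lower in CD62Llo PSGL1lo cells relative to CD62Llo PSGL1hi cells (-2.64 ± 0.141, adjusted p = 3.42e-08). Irf4 was not called in that comparison (0.24, adjusted p = 0.209). Against naive cells Prdm1 was higher, as Irf4 was, by 3.15 in CD62Lhi PSGL1hi cells. Its CD62Llo PSGL1lo ratios were 0.316 to 0.391, above the 0.224 to 0.237 of naive arrays. The listed partner Bcl6 was highest in CD62Llo PSGL1lo cells, at 4.062 to 4.89, against 0.813 to 1.436 in the PSGL1hi arrays. Of the Myc growth targets, the nucleolar protein gene Mybbp1a was lower in CD62Llo PSGL1lo than in naive cells (-0.85, adjusted p = 0.000791), as Myc was. The polyamine enzyme gene Odc1 went against Myc and was 4.4-fold higher (2.14, adjusted p = 2.64e-07).

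**Figure D5:**
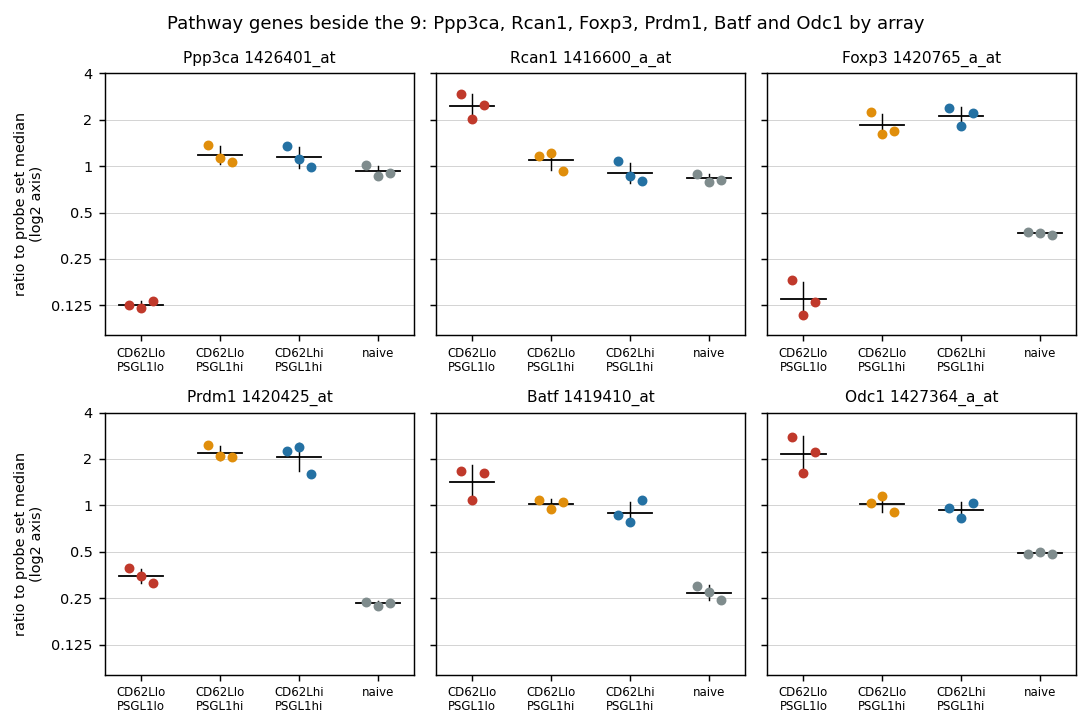
Ratio to the probe set median (log2 axis) on each array for Ppp3ca, Rcan1, Foxp3, Prdm1, Batf and Odc1 in CD62Llo PSGL1lo, CD62Llo PSGL1hi, CD62Lhi PSGL1hi and naive cells, with points, lines and bars as for the other array plots. Ppp3ca, Foxp3 and Prdm1 are low in CD62Llo PSGL1lo cells, while Rcan1 and Odc1 are highest there.

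The genes most like each member were those with the highest Pearson r of log2 ratios over the 12 arrays, a likeness that 4 population means can set. For Nfatc1 they were Eea1 (0.998), the helper cytokine gene Il21 (0.996) and Tiam1 (0.995). For Irf4 they were Cd44, Vsig10 and Bhlhe40 (each 0.995), for Egr2 Samsn1 (0.994), Slc37a2 and Ryr3 (0.991 each), and for Egr1 Fbxw17 (0.985), Pls3 and Ugp2 (0.979 each). For Myc they were Vps37b and Usp18 (0.992 each) and Satb1 (0.983). Nr4a1, without a call, reached 0.86 with Wdr17. For Nr4a2 by 1455034_at, a probe set chosen after its values were seen, they were Wee1 and Srgap3 (0.991 each) and Ehd4 (0.99), whereas the lead probe set reached 0.904 with Rnf39.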

How the data were processed

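RNA of 12 samples was hybridised to Affymetrix whole-genome mouse arrays. The deposited values are ratios: per the submitters' processing notes signals came from MAS5, whose version is not given in the sources used here, and from the values each probe set was divided by its median over the 12 arrays (within 0.002 of 1 for 99.7% of 45101 probe sets). The design had assumed signals, so no pseudocount or brightness filter was applied. Signal over background is unknown, and the number of arrays limits precision.

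After 64 control probe sets were left out, log2 ratios of 45037 were fitted with limma 3.58.1 (lmFit and eBayes, run in R 4.3.3) on all 12 arrays with 1 mean per population. Tests were two-sided: an F test and 6 pairwise comparisons, each with Benjamini-Hochberg adjustment. Residual degrees of freedom were 8, prior 5.54, and the median SE was 0.12 log2. In simulated data for CD62Llo PSGL1lo against CD62Llo PSGL1hi over 45037 probe sets, 86% of 50 changes of 1 log2 and 28% of 50 changes of 0.5 were recovered. Python 3.11.15, pandas 2.3.3 and matplotlib 3.10.9 were also used.

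The platform annotation gave 1 symbol to 34945 probe sets, several to 932 and none listed for 9160. For a gene's lead, probe sets without a letter suffix such as _a_at or _s_at came first, then a curated accession, then the lowest number. Genes with suffixed probe sets alone, such as Myc, had a suffixed lead. For Nr4a2 the rule placed 1433422_at before 1450749_a_at and 1450750_a_at, which have a curated accession. Named were all 9 genes, up to 4 called genes per list with the smallest p, and the 3 genes of highest r to each member. Other genes and probe sets given with values were chosen after their values were seen. The 9 genes and all lists were chosen with earlier results of these data known, so list counts are descriptions. Promoters came from RefSeq (GRCm38.p6) and were matched by symbol. After member windows were filtered by chromosome, 5 of 9 genes had a window.

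Pairing was checked by correlating, over probe sets, the deviations from population means of arrays that share a replicate number. The correlation was 0.451, 0.317 and 0.138 between CD62Llo PSGL1lo and CD62Llo PSGL1hi, 0.371, 0.386 and 0.446 between CD62Llo PSGL1hi and CD62Lhi PSGL1hi, and 0.328, 0.339 and 0.3 between CD62Llo PSGL1lo and CD62Lhi PSGL1hi, so the numbers pair the CD44+ arrays. With naive arrays it was -0.082 to 0.157, which does not pair them. Alternatives were quantile normalization, median centring, a replicate block, fits of the compared populations alone, other feature sets, a robust prior and leaving out each array.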

Additional observations from a re-analysis of the deposited data

How the results depend on the processing

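Of 57 calls of single probe sets among the 9 genes, 48 kept direction and call under every alternative, 9 lost the call in at least 1 and 1 of these reversed: Nr4a2 1450750_a_at in CD62Llo PSGL1lo against naive cells, at -0.055 after quantile normalization. Of results without a call, 13 gained one somewhere. The cause of these changes was not tested.

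For CD62Llo PSGL1hi against CD62Lhi PSGL1hi, the calls among the 23 probe sets numbered 0 as reported, 4 with a replicate block over 12 arrays and 3 with a replicate block over the 9 CD44+ arrays. Among all probe sets this comparison gave 556 calls, 893 after quantile normalization, 1016 and 1089 with the 2 replicate blocks, and 368 when only the compared populations were fitted. Without replicate 1 or replicate 2 of CD62Llo PSGL1hi it gave 364 and 370. The share of higher calls was 32%, against 44.8% and 48.6% with the blocks. For CD62Llo PSGL1lo against CD62Lhi PSGL1hi, a fit of only these populations left 6 of the 10 member calls and 3274 of 5242 calls in all. Fits of 2 populations have fewer arrays for the pooled spread.

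Leaving out each array in turn gave 4 to 5 member calls for CD62Llo PSGL1lo against CD62Llo PSGL1hi, 0 to 0 for CD62Llo PSGL1hi against CD62Lhi PSGL1hi, and 8 to 11 for CD62Llo PSGL1lo against CD62Lhi PSGL1hi. Against naive cells the ranges were 13 to 16, 14 to 15 and 13 to 15 for CD62Llo PSGL1lo, CD62Llo PSGL1hi and CD62Lhi PSGL1hi, and 15 to 17 in the F test. Over all probe sets they were 2718 to 4029, 364 to 714, 4224 to 5341, 7082 to 9322, 5748 to 9078, 5906 to 8890 and 8418 to 11627 in the same order.

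Limits: 3 arrays per population, an unknown signal over background, ratios that cannot rank genes, and probe sets of Nr4a2, Egr3 and Irf4 that disagree. Naive cells differ from the others in age as well as in state.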
